A study of Danio rerio with 6 samples.

Results

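Nodal and Smad signalling components were examined in zebrafish early embryonic cells. The components were *skilb*, *gdf3* and the genes with the symbols *smad2*, *smad3a*, *smad3b*, *smad4a*, *smad6b*, *smad7*, *lft1* and *lft2*. These 10 symbols matched 12 of the 32266 genes in the expression table, because SMAD3, SMAD4 and SMAD6 are each given for a pair of Ensembl identifiers without a paralog letter. Of the 12 genes, 9 had counts in at least 1 library, 3 were listed at 0 in all 6 libraries, and 5 passed the filter on low values (*gdf3*, *lft2*, SMAD2, SMAD7 and *skilb*).

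The study asked how cells with abnormally high Wnt/β-catenin signalling differ when they are surrounded by normal cells. RNA-Seq was performed on 3 groups of AB-strain embryos labelled 9 hpf (hours post fertilisation), with 2 libraries (lots 1 and 2) per group. ‘Mosaic’ cells were GFP+ cells sorted from embryos in which a few cells expressed constitutively active β-catenin (β-catCA), from a plasmid under a heat shock promoter that was injected at the one-cell stage. ‘Ubiquitous’ cells were GFP+ cells sorted from transgenic embryos, in which the *hsp70l* promoter drives GFP and β-catCA in all cells after heat shock. ‘Uninjected’ cells came from embryos without the plasmid or the transgene and were also sorted. The study's methods state that the copy number of the plasmid is hard to control. Neighbouring cells, injection and transgene copies therefore cannot be told apart in comparisons with ‘Mosaic’ cells. Whether the ‘Uninjected’ embryos were heat-shocked is not given in the sources used here, and the study's methods place the collection for RNA-Seq slightly earlier than the labels do. What a lot stands for is not given in those sources, so p-values measure the spread between lots, which may be technical. That spread was mostly estimated over many genes rather than from the gene's own lots. Each library came from cells pooled over embryos.

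Nodal ligands, together with Gdf3 and an EGF-CFC co-receptor, activate activin-type receptors that phosphorylate Smad2 and Smad3. These receptor-Smads bind the co-Smad Smad4 and enter the nucleus, where with partners such as FoxH1 they switch on mesendoderm genes in the early vertebrate embryo. The pathway is held back by Lefty proteins outside the cell, by the inhibitory Smads Smad6 and Smad7 at the receptors, and by Ski and SnoN (Skil) corepressors, which bind Smad complexes on DNA.

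The depth of the libraries differed widely. The deposited values were regularized logarithms (rlog, on a log2 scale), and the counts behind them were inferred by inverting that transformation. The inferred total was 217242 and 240220 counts in ‘Mosaic’ cells, 345590 and 34540 in ‘Ubiquitous’ cells, and 58352 and 489312 in ‘Uninjected’ libraries (lot 1 and lot 2). A count of 0 allows up to 3 counts, which is between 6.13 and 86.9 CPM (counts per 1000000) in a library. CEL-Seq2 counts each transcript once at its 3′ end, so CPM values were not divided by gene length. In these bulk samples, fewer cells of a type and less RNA per cell cannot be told apart. The 9 early embryonic marker genes all had counts, with a summed level of 2384 to 3697 CPM in ‘Mosaic’ cells, 2171 to 3686 CPM in ‘Ubiquitous’ and 2519 to 3662 CPM in ‘Uninjected’ libraries. Endogenous CTNNB1, which encodes β-catenin, was at 1966 and 2011 CPM in ‘Mosaic’ cells, 1519 and 1303 CPM in ‘Ubiquitous’ cells, and 1731 and 1253 CPM in ‘Uninjected’ libraries. No row for GFP was found, and whether a transcript of the introduced β-catCA is counted under CTNNB1 is not known, so that gene does not check the labels.

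Of the 5 genes that passed the filter, 1 was called in ‘Mosaic’ relative to ‘Uninjected’ cells (limma, adjusted p under 0.1). Another 1 was called in ‘Mosaic’ relative to ‘Ubiquitous’ cells. Of all genes tested, 1.38% and 1.33% were called in these comparisons. *gdf3* was lower in ‘Mosaic’ relative to ‘Uninjected’ cells, with a difference in rlog of -0.76, and *skilb* was lower in ‘Mosaic’ relative to ‘Ubiquitous’ cells, with a difference of -0.997 (limma, adjusted p = 0.0586 and 0.0496). Against ‘Uninjected’, *lft2*, SMAD7 and *skilb* also had lower mean values in ‘Mosaic’ cells but did not pass the threshold of an adjusted p under 0.1. The mean of SMAD2 differed by 0.21 or less between groups, which did not pass the test. Both calls depended on how the values were tested. They were also made from few inferred counts and were lost in a negative binomial test of those counts, with the values given beside each gene. Over the whole table, that test also had fewer genes at an unadjusted p under 0.05 than limma.

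**Figure D1:**
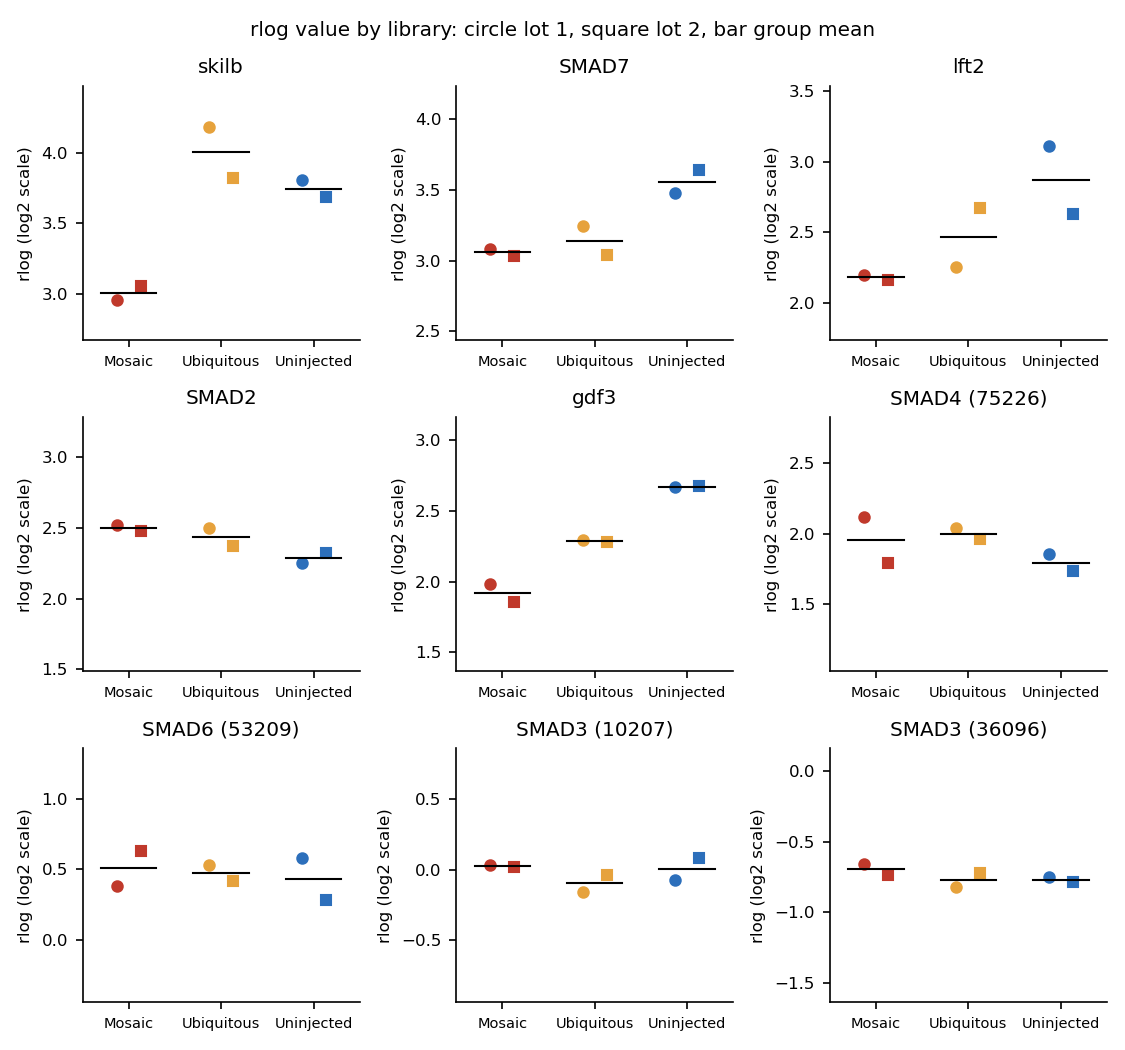
Deposited rlog values (log2 scale, y axis) of the 9 genes with counts, by group (x axis). Circles are lot 1, squares are lot 2 and bars are group means. Numbers after a symbol are the last 5 digits of the Ensembl identifier, and every panel spans the same height on the rlog scale. Both ‘Mosaic’ values of *skilb*, 2.96 and 3.05, lay below the other 4 libraries, and the *gdf3* values of the 3 groups did not overlap.

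Among the ligands, *gdf3* (ENSDARG00000037995) encodes a TGF-β family protein that forms heterodimers with Nodal and is supplied maternally in zebrafish. Its rlog values were 1.98 and 1.85 in ‘Mosaic’ cells, 2.29 and 2.28 in ‘Ubiquitous’ cells, and 2.67 and 2.68 in ‘Uninjected’ cells. Both ‘Mosaic’ libraries were lowest, both ‘Ubiquitous’ libraries were in between and both ‘Uninjected’ libraries were highest, with no overlap between any of the groups. The mean was 1.92 ± 0.09 in ‘Mosaic’ cells, 2.29 ± 0.01 in ‘Ubiquitous’ and 2.67 ± 0.01 in ‘Uninjected’ cells (SD, n = 2 each). *gdf3* passed the filter, a mean rlog of at least 2, through its ‘Ubiquitous’ and ‘Uninjected’ values, since its ‘Mosaic’ mean was below 2.

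The fall of *gdf3* in ‘Mosaic’ relative to ‘Uninjected’ cells was 0.76 ± 0.18 (SE), with a 95% confidence interval of -1.14 to -0.37 (limma, adjusted p = 0.0586). The ‘Ubiquitous’ minus ‘Uninjected’ difference was -0.39 (95% confidence interval -0.77 to 0.00, limma adjusted p = 0.743). The ‘Mosaic’ minus ‘Ubiquitous’ difference was -0.37 (95% confidence interval -0.76 to 0.02, limma adjusted p = 0.403), so the intermediate position of the ‘Ubiquitous’ libraries was not separated from either neighbour by the test.

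The counts behind these *gdf3* values were small: 3 and 2 in ‘Mosaic’ cells, 11 and 1 in ‘Ubiquitous’ cells, and 4 and 30 in ‘Uninjected’ libraries. The exact 95% counting interval was 0.733 to 161 CPM in ‘Ubiquitous’ lot 2 and 18.7 to 176 CPM in ‘Uninjected’ lot 1. The small SDs of the rlog values do not cover this counting error. Pooled over each group, this was 10.9 CPM in ‘Mosaic’ against 62.1 CPM in ‘Uninjected’ cells, a level 5.68-fold lower (exact 95% interval 2.21 to 18.6, counting error only). A fold on the rlog scale is smaller than that of the counts because the rlog transformation pulls the values of genes with low counts towards their mean.

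The *gdf3* call was not stable. The adjusted p over the alternatives ran between 0.0469 and 0.973. It was 0.326 in limma with no filter on low values, 0.127 with voom weights on the inferred counts and 0.973 in a negative binomial test of them. Leaving out 1 library ended the call for ‘Mosaic’ lot 1 (adjusted p = 0.230), ‘Mosaic’ lot 2 (0.464), ‘Uninjected’ lot 1 (0.184) and ‘Uninjected’ lot 2 (0.166), with limma and the difference between -0.82 and -0.69. Germ plasm genes are another set of maternally supplied transcripts, and the summed level of 6 such genes, all with counts, was ordered in the same way. It was 8.33 to 23.02 CPM in ‘Mosaic’ cells, 60.8 to 86.9 CPM in ‘Ubiquitous’ and 137 to 206 CPM in ‘Uninjected’ libraries. These sums rest on few counts: 86.9 CPM in ‘Ubiquitous’ lot 2 is 3 counts. Single genes did not all keep the order, since *tdrd7a* was at 13.8 CPM in ‘Mosaic’ lot 1 and 5.79 CPM in ‘Ubiquitous’ lot 1. The only one of them to pass the filter, DND1, fell by 1.02 in ‘Mosaic’ relative to ‘Uninjected’ cells (limma, adjusted p = 0.0113). It had 2 and 0 counts in ‘Mosaic’ cells, where its mean rlog was 1.58, and passed the filter through the other groups. The part of such transcripts in the *gdf3* result was not tested. Of 7 heat shock genes, 6 passed the filter, with a median ‘Mosaic’ minus ‘Uninjected’ difference of -0.14 and 4 of the 6 below 0. Only *hsp90aa1.1* was called, higher by 0.997 (limma, adjusted p = 0.0308), and the part of heat shock was not tested either.

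Lefty proteins are secreted antagonists of Nodal and are themselves induced by it. *lft1* (ENSDARG00000019920) was listed at 0 in all 6 libraries. *lft2* (ENSDARG00000044059) had rlog values of 2.20 and 2.16 in ‘Mosaic’ cells, 2.26 and 2.67 in ‘Ubiquitous’ cells, and 3.11 and 2.63 in ‘Uninjected’ cells. Both ‘Mosaic’ libraries were below all others, while ‘Ubiquitous’ lot 2 lay within the range of the ‘Uninjected’ libraries.

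The inferred counts of *lft2* were 4 and 4 in ‘Mosaic’ cells, 8 and 2 in ‘Ubiquitous’ cells, and 6 and 23 in ‘Uninjected’ libraries. The ‘Mosaic’ minus ‘Uninjected’ difference was -0.69 ± 0.22 (SE, 95% confidence interval -1.15 to -0.23), which did not pass after adjustment (limma, adjusted p = 0.218). In pooled counts, *lft2* was at 17.5 CPM in ‘Mosaic’ and 53.0 CPM in ‘Uninjected’ cells, 3.03-fold lower in ‘Mosaic’ (exact 95% interval 1.35 to 7.67, counting error only). The spread between the ‘Uninjected’ lots (SD 0.34) was large against this difference, which was -0.45 without ‘Uninjected’ lot 1 and -0.93 without lot 2. The other differences were -0.41 for ‘Ubiquitous’ minus ‘Uninjected’ and -0.28 for ‘Mosaic’ minus ‘Ubiquitous’ (limma, adjusted p = 0.788 and 0.593).

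The receptor-Smads carry the signal into the nucleus. SMAD2 (ENSDARG00000006389) had rlog values of 2.52 and 2.47 in ‘Mosaic’ cells, 2.50 and 2.37 in ‘Ubiquitous’ cells, and 2.25 and 2.32 in ‘Uninjected’ cells. The ‘Mosaic’ and ‘Ubiquitous’ libraries overlapped, and all 4 of them lay slightly above both ‘Uninjected’ libraries. None of the differences passed the test: ‘Mosaic’ minus ‘Uninjected’ was 0.21 (95% confidence interval -0.19 to 0.61, limma adjusted p = 0.730), ‘Ubiquitous’ minus ‘Uninjected’ was 0.15 (-0.25 to 0.55, adjusted p = 0.947) and ‘Mosaic’ minus ‘Ubiquitous’ was 0.06 (-0.34 to 0.46, adjusted p = 0.923). The 9 and 9 counts in ‘Mosaic’ cells, 14 and 1 in ‘Ubiquitous’ cells, and 1 and 15 in ‘Uninjected’ libraries gave pooled levels of 39.3, 39.5 and 29.2 CPM.

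Both SMAD3 genes were too low to test. ENSDARG00000010207 had 2 and 2 counts in ‘Mosaic’ cells, 0 and 0 in ‘Ubiquitous’ cells, and 0 and 6 in ‘Uninjected’ libraries. ENSDARG00000036096 had 2 and 1 counts in ‘Mosaic’ cells, 0 and 0 in ‘Ubiquitous’ cells, and 0 and 1 in ‘Uninjected’ libraries. Differences in SMAD3 were therefore not detectable at this depth, and which identifier is *smad3a* and which is *smad3b* was not taken from the symbols.

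Smad4 is the shared partner of the receptor-Smads. One SMAD4 gene (ENSDARG00000012649) was listed at 0 in all 6 libraries. The other (ENSDARG00000075226) had a mean rlog of 1.92, just under the minimum of 2 for testing. *gdf3*, at a mean of 1.92 in ‘Mosaic’ cells, passed with a mean of 2.29 over all 6 libraries. For SMAD4 (ENSDARG00000075226), rlog values were 2.12 and 1.79 in ‘Mosaic’ cells, 2.04 and 1.96 in ‘Ubiquitous’ cells, and 1.85 and 1.73 in ‘Uninjected’ cells. They came from 8 and 4, 11 and 1, and 1 and 8 counts. The ‘Mosaic’ libraries overlapped with both other groups. In pooled counts the SMAD4 gene was at 26.2 CPM in ‘Mosaic’ and 16.4 CPM in ‘Uninjected’ cells, a ratio of 1.60. The interval of that ratio included no difference (exact 95% interval 0.617 to 4.29, counting error only).

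The inhibitory Smads block receptor signalling, and in vertebrates SMAD7 is a feedback gene induced by TGF-β family ligands. SMAD7 (ENSDARG00000016858) had rlog values of 3.09 and 3.03 in ‘Mosaic’ cells, 3.24 and 3.04 in ‘Ubiquitous’ cells, and 3.48 and 3.64 in ‘Uninjected’ cells. The libraries of both β-catCA groups overlapped with each other and lay below both ‘Uninjected’ libraries. The counts were 10 and 10 in ‘Mosaic’ cells, 21 and 1 in ‘Ubiquitous’ cells, and 5 and 52 in ‘Uninjected’ libraries.

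The SMAD7 differences did not pass after adjustment. ‘Mosaic’ minus ‘Uninjected’ was -0.50 ± 0.22 (SE, 95% confidence interval -0.97 to -0.03, limma adjusted p = 0.405), and ‘Ubiquitous’ minus ‘Uninjected’ was -0.42 ± 0.22 (-0.88 to 0.05, adjusted p = 0.788). In pooled counts, SMAD7 was at 43.7 CPM in ‘Mosaic’ and 104 CPM in ‘Uninjected’ cells, 2.38-fold lower in ‘Mosaic’ (exact 95% interval 1.41 to 4.18). It was at 57.9 CPM in ‘Ubiquitous’ cells, 1.80-fold lower than in ‘Uninjected’ cells (1.08 to 3.09), where both intervals cover counting error only. They leave out the spread between lots. Lot 1 gave 21 of the 22 ‘Ubiquitous’ counts, and lot 2 gave 52 of the 57 ‘Uninjected’ counts. Between ‘Mosaic’ and ‘Ubiquitous’ cells the SMAD7 difference was -0.08 (95% confidence interval -0.55 to 0.38, limma adjusted p = 0.908), and its sign was not fixed, since it was 0.02 without ‘Ubiquitous’ lot 1.

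The SMAD6 genes gave little signal. ENSDARG00000031763 was listed at 0 in all 6 libraries, and ENSDARG00000053209 had 1 and 4 counts in ‘Mosaic’ cells, 4 and 0 in ‘Ubiquitous’ cells, and 1 and 1 in ‘Uninjected’ libraries. No difference was detectable at this depth.

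*skilb* (ENSDARG00000022904) encodes a zebrafish Skil (SnoN) corepressor of Smad complexes. Its rlog values were 2.96 and 3.05 in ‘Mosaic’ cells, 4.18 and 3.82 in ‘Ubiquitous’ cells, and 3.81 and 3.68 in ‘Uninjected’ cells. Both ‘Mosaic’ libraries lay below the other 4, and the lower ‘Ubiquitous’ library was just above the higher ‘Uninjected’ library. The paralog listed as SKIL (ENSDARG00000023933) was at 0 in all 6 libraries.

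The inferred counts of *skilb* were 6 and 8 in ‘Mosaic’ cells, 53 and 4 in ‘Ubiquitous’ cells, and 6 and 45 in ‘Uninjected’ libraries. As CPM this was 27.6 and 33.3 CPM in ‘Mosaic’ cells, 153 and 116 CPM in ‘Ubiquitous’ cells, and 103 and 92.0 CPM in ‘Uninjected’ libraries. The level was lower in both ‘Mosaic’ libraries than in any other library. These CPM derive from the rlog values and are not a separate measurement. The exact counting intervals were 10.1 to 60.1 and 14.4 to 65.6 CPM in ‘Mosaic’ lots 1 and 2. They overlapped with those of ‘Ubiquitous’ lot 2 (31.6 to 297 CPM) and ‘Uninjected’ lot 1 (37.7 to 224 CPM). They lay below those of ‘Ubiquitous’ lot 1 (115 to 201 CPM) and ‘Uninjected’ lot 2 (67.1 to 123 CPM).

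*skilb* fell by 0.997 in ‘Mosaic’ relative to ‘Ubiquitous’ cells (SE 0.23, 95% confidence interval -1.48 to -0.51, limma adjusted p = 0.0496). In pooled counts this was 30.6 CPM in ‘Mosaic’ against 149.9 CPM in ‘Ubiquitous’ cells, 4.90-fold lower (exact 95% interval 2.70 to 9.52, counting error only). The ‘Mosaic’ minus ‘Uninjected’ difference was -0.74 ± 0.23 (SE, 95% confidence interval -1.23 to -0.25) and did not pass (limma, adjusted p = 0.209), with pooled counts 3.04-fold lower in ‘Mosaic’ cells (exact 95% interval 1.66 to 5.95). The ‘Ubiquitous’ minus ‘Uninjected’ difference was 0.26 (95% confidence interval -0.23 to 0.74, limma adjusted p = 0.936).

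The adjusted p of the *skilb* difference between ‘Mosaic’ and ‘Ubiquitous’ cells ran between 0.0258 and 0.428 over the alternatives other than the 4 deepest libraries. In the 4 deepest libraries it was 0.00152, but this fit holds 1 ‘Ubiquitous’ library and takes its spread from the ‘Mosaic’ lots alone, so it says nothing about stability. The call held with voom weights (adjusted p = 0.0745) and was lost in the negative binomial test of inferred counts (adjusted p = 0.384). It was also lost in limma without ‘Mosaic’ lot 1 (adjusted p = 0.391), ‘Mosaic’ lot 2 (0.321), ‘Ubiquitous’ lot 1 (0.210) or ‘Ubiquitous’ lot 2 (0.126), with differences between -1.18 and -0.82. Markers of another cell type were read in the same libraries: the summed level of 15 enveloping layer genes, of which *krt18b* and *cldnf* were at 0, was 1902 to 2546 CPM in ‘Mosaic’ cells, 1013 to 1400 CPM in ‘Ubiquitous’ and 1594 to 3294 CPM in ‘Uninjected’ libraries. Of these sums, *krt8* alone made up 1583 and 1136 CPM in ‘Mosaic’ lots 1 and 2. Among the 4 genes that passed the filter, only *krt8* was called, higher in ‘Mosaic’ than in ‘Ubiquitous’ cells by 1.18 (limma, adjusted p = 0.0416). *krt18a.1* went the other way, with a difference of -0.34 (limma, adjusted p = 0.578). Of 7 heat shock genes, 6 passed the filter, with a median ‘Mosaic’ minus ‘Ubiquitous’ difference of 0.11 and 2 of the 6 below 0. Only *hsp70.3* was called, lower by 0.98 (limma, adjusted p = 0.0548). The part of either in the *skilb* result was not tested.

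**Figure D2:**
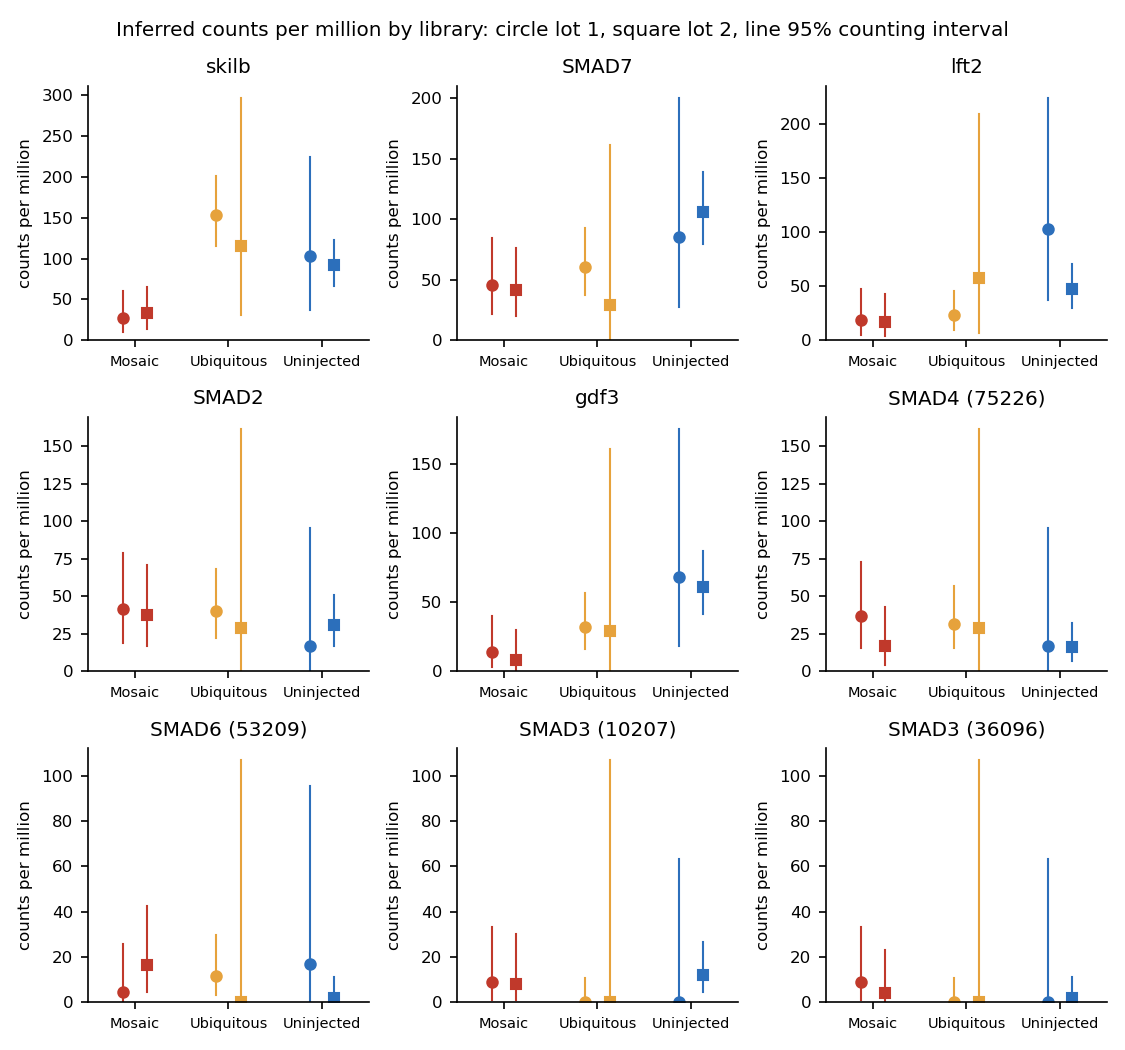
Inferred CPM (y axis) of the 9 genes with counts, by group (x axis). Circles are lot 1, squares are lot 2 and vertical lines are exact 95% intervals that cover counting error only. *skilb* was at 27.6 and 33.3 CPM in ‘Mosaic’ and at 92.0 CPM or more in the other 4 libraries. The lines of ‘Ubiquitous’ lot 2 and ‘Uninjected’ lot 1, the shallowest libraries, are the longest.

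Over the 5 genes that passed the filter, the median ‘Mosaic’ minus ‘Uninjected’ difference was -0.69, against 0.02 over all 3905 genes tested. It was -0.39 against -0.03 for ‘Ubiquitous’ minus ‘Uninjected’, and -0.28 against 0.05 for ‘Mosaic’ minus ‘Ubiquitous’. These comparisons share libraries and are not independent of each other. The genes were chosen with earlier results of these data known, so these medians and the shares below are descriptions, not tests.

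Of the 5 genes, 1 was called lower and 0 higher in ‘Mosaic’ than in ‘Uninjected’ cells, where 1.38% of all genes tested were called in either direction (0.845% lower and 0.538% higher). In ‘Ubiquitous’ relative to ‘Uninjected’ cells 0 of the 5 were called, where 0.487% of all genes were, and 0 of the 5 had an unadjusted p under 0.05 in limma (6.76% of all genes). The negative binomial test and voom called 0 of them as well. In ‘Mosaic’ relative to ‘Ubiquitous’ cells 1 of the 5 was called, lower, where 1.33% of all genes were called (0.819% lower and 0.512% higher). An unadjusted p under 0.05 was reached by 4 of the 5 for ‘Mosaic’ minus ‘Uninjected’ (11.3% of all genes) and by 1 of the 5 for ‘Mosaic’ minus ‘Ubiquitous’ (12.96%) in limma.

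The libraries of the groups often failed to overlap, in these genes and in general. *gdf3*, *lft2*, SMAD7 and *skilb* were lower in both ‘Mosaic’ than in both ‘Uninjected’ libraries (4 of 5, against 19.9% of all genes tested), and SMAD2 was higher (1 of 5, against 23.1%). In ‘Ubiquitous’ relative to ‘Uninjected’ libraries, *gdf3* and SMAD7 were lower without overlap (2 of 5, against 19.6%) and SMAD2 and *skilb* higher (2 of 5, against 13.7%). In ‘Mosaic’ relative to ‘Ubiquitous’ libraries, *gdf3*, *lft2* and *skilb* were lower without overlap (3 of 5, against 18.5%), and none was higher (against 28.1%).

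**Figure D3:**
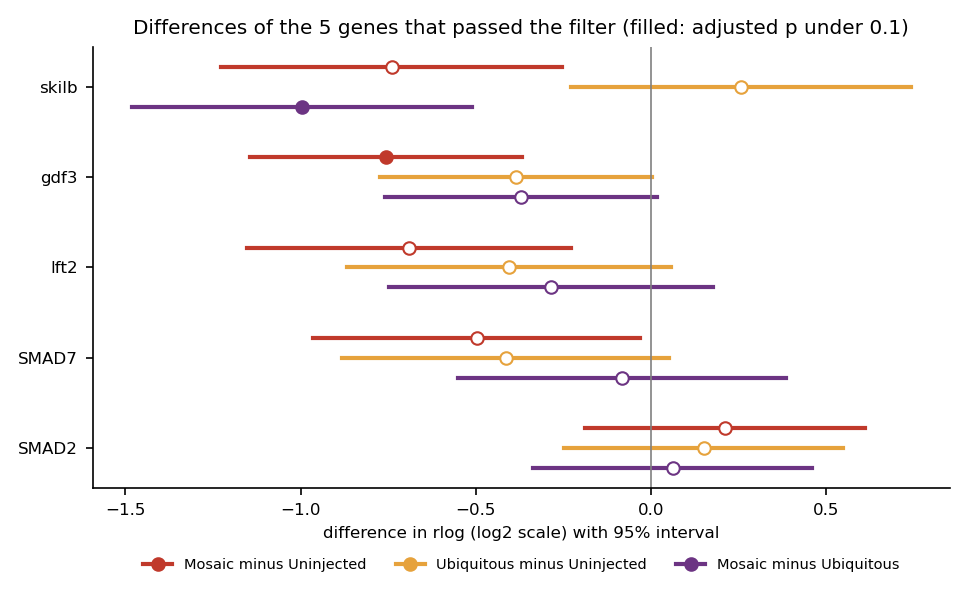
Differences in rlog between groups (x axis, log2 scale) for the 5 genes that passed the filter (y axis). Points are limma estimates, lines are 95% confidence intervals and filled points have an adjusted p under 0.1. Only the *gdf3* difference of -0.76 between ‘Mosaic’ and ‘Uninjected’ and the *skilb* difference of -0.997 between ‘Mosaic’ and ‘Ubiquitous’ cells are filled.

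The 5 genes fell into different patterns over the 6 libraries. *gdf3* varied with SMAD7 (Pearson's r = 0.89) and *lft2* (r = 0.82) and against SMAD2 (r = -0.85), and *lft2* varied against SMAD2 (r = -0.96). *skilb* was less close to *gdf3* (r = 0.67), *lft2* (r = 0.47) and SMAD7 (r = 0.42), since its ‘Ubiquitous’ values were as high as its ‘Uninjected’ values or higher. The genes whose rlog values over the 6 libraries were most like those of *skilb* were VRTN (r = 0.99), si:ch211-195b11.4, *efs* and *chd4b* (r = 0.98 each) and *adssl* (r = 0.98). VRTN, for example, was at 4.54 and 4.65 in ‘Mosaic’ cells, 5.50 and 5.11 in ‘Ubiquitous’ cells, and 5.13 and 5.05 in ‘Uninjected’ cells. *chd4b*, which encodes a chromatin remodeller, was at 5.73 and 5.97 in ‘Mosaic’ cells, 6.80 and 6.63 in ‘Ubiquitous’ cells, and 6.60 and 6.52 in ‘Uninjected’ cells. These correlations are descriptions over 6 libraries that also share their group and depth.

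Other ligands of the pathway were hardly detected. Of 15 further genes for Nodal, activin and TGF-β type ligands, 10 were listed at 0 in all 6 libraries, including the Nodal genes *ndr2* and *spaw*, and none passed the filter. The Nodal gene *ndr1* had 3 counts in ‘Uninjected’ lot 2 and none in the other libraries. INHBA (ENSDARG00000012671), an activin subunit, had no counts in the 4 libraries of ‘Mosaic’ and ‘Ubiquitous’ cells, against 2 and 10 counts in ‘Uninjected’ libraries. TGFB3 had 0 and 1 counts in ‘Mosaic’ cells, 4 and 0 in ‘Ubiquitous’ cells, and 2 and 3 in ‘Uninjected’ libraries, and INHBB (ENSDARG00000040777) had 3 and 2, 3 and 0, and 1 and 2.

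Of 13 receptor and co-receptor genes, 7 had counts and 2 passed the filter, and none of them was called in limma or the negative binomial test. In limma 1.38%, 0.487% and 1.33% of all genes tested were called, so none of 2 is near that share. ACVR1B had an unadjusted p under 0.05 for ‘Mosaic’ minus ‘Uninjected’ in limma. The type I activin receptor gene ACVR1B (ENSDARG00000018968) was at 4.95 and 5.23 in ‘Mosaic’ cells, 5.41 and 5.48 in ‘Ubiquitous’ cells, and 5.79 and 5.55 in ‘Uninjected’ cells on the rlog scale. Its ‘Mosaic’ minus ‘Uninjected’ difference was -0.58 (limma, adjusted p = 0.317), with both ‘Mosaic’ libraries lowest. *tdgf1*, the EGF-CFC co-receptor of Nodal, was at 3.41 and 3.68 in ‘Mosaic’ cells, 3.33 and 4.03 in ‘Ubiquitous’ cells, and 3.87 and 3.80 in ‘Uninjected’ cells, and its groups ‘Mosaic’ and ‘Ubiquitous’ overlapped. The type II receptor gene ACVR2A had 3 and 2 counts in ‘Mosaic’ cells, 3 and 0 in ‘Ubiquitous’ cells, and 1 and 6 in ‘Uninjected’ libraries.

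Of the Smads of the BMP branch, SMAD5 passed the filter and was not called, with differences of 0.17 for ‘Mosaic’ minus ‘Uninjected’, 0.25 for ‘Ubiquitous’ minus ‘Uninjected’ and -0.08 for ‘Mosaic’ minus ‘Ubiquitous’ (limma, SE 0.26, adjusted p = 0.844, 0.938 and 0.929). Its ‘Mosaic’ lots were at 368 and 724 CPM, so a moderate difference could have been missed. SMAD1 and *smad9* had counts but did not pass the filter, with 5 and 6 counts of SMAD1 in ‘Mosaic’ cells, 10 and 0 in ‘Ubiquitous’ cells, and 2 and 12 in ‘Uninjected’ libraries. Counts of *smad9* were 6 and 6 in ‘Mosaic’ cells, 4 and 1 in ‘Ubiquitous’ cells, and 0 and 7 in ‘Uninjected’ libraries.

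Among 19 regulators of Smads (such as cofactors, corepressors and ubiquitin ligases), 16 had counts and 8 passed the filter. None of the 8 was called in any comparison in limma or the negative binomial test. In limma 1.38%, 0.487% and 1.33% of all genes tested were called, so none of 8 is near that share. Of the 8, 1 had an unadjusted p under 0.05 in limma, for ‘Mosaic’ minus ‘Uninjected’ (11.3% of all genes). The median difference of the 8 was 0.01 for ‘Mosaic’ minus ‘Uninjected’, -0.03 for ‘Ubiquitous’ minus ‘Uninjected’ and -0.02 for ‘Mosaic’ minus ‘Ubiquitous’, close to the 0.02, -0.03 and 0.05 of all genes. TRIM33, a ubiquitin ligase that acts on Smad4, differed by -0.08 between ‘Mosaic’ and ‘Uninjected’ cells, DRAP1, a repressor that restrains Nodal signalling in mice, by -0.53 and the corepressor TGIF1 by 0.08 (limma, adjusted p = 0.914, 0.476 and 0.916).

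A list of 18 symbols of mesendoderm genes that respond to Nodal matched 20 genes. CXCR4 and FSCN1 are each given for a pair of identifiers without a paralog letter, so each pair may hold a paralog that was not listed. Of the 20 genes, 19 had counts and 14 passed the filter. In ‘Mosaic’ relative to ‘Uninjected’ cells 2 fell and 0 rose: *tbxta*, the zebrafish Brachyury, by 1.38 and the endoderm and axial factor *foxa3* by 1.30 (limma, adjusted p = 0.0205 and 0.0172), where 1.38% of all genes tested were called. No mesendoderm gene was called in that comparison without ‘Mosaic’ lot 1, ‘Mosaic’ lot 2 or ‘Uninjected’ lot 1, or with no filter on low values. In ‘Ubiquitous’ relative to ‘Uninjected’ cells *foxa* rose by 1.05 (limma, adjusted p = 0.0871) and 13 did not pass, where 0.487% of all genes were called. None was called there with voom, in the negative binomial test, or without any 1 library other than ‘Ubiquitous’ lot 1, without which 2 were. In ‘Mosaic’ relative to ‘Ubiquitous’ cells 5 fell and 0 rose: *tbxta* by 1.50, *mixl1* by 1.36, *foxa* by 1.30, OSR1 by 1.21 and *aplnrb* by 1.18 (limma, adjusted p between 0.025 and 0.0445), where 1.33% of all genes were called. These 5 calls became 0 without ‘Mosaic’ lot 1, ‘Mosaic’ lot 2 or ‘Ubiquitous’ lot 2 and with no filter, and 2 in the negative binomial test. The levels of *tbxta* were 212 and 229 CPM in ‘Mosaic’ cells, 877 and 869 CPM in ‘Ubiquitous’ cells, and 1217 and 509 CPM in ‘Uninjected’ libraries. *chrd*, a BMP antagonist, and CXCR4 (ENSDARG00000057633), a chemokine receptor, did not pass, with ‘Mosaic’ minus ‘Uninjected’ differences of 0.33 and -0.27.

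The median difference of the 14 genes was -0.40 for ‘Mosaic’ minus ‘Uninjected’, 0.24 for ‘Ubiquitous’ minus ‘Uninjected’ and -0.53 for ‘Mosaic’ minus ‘Ubiquitous’. Many of these genes respond to Wnt and other signals as well. This list was also chosen with earlier results of these data known, so its counts and medians are descriptions. The summed level of the 20 was 2210 to 3006 CPM in ‘Mosaic’ cells, 4569 to 4632 CPM in ‘Ubiquitous’ and 3376 to 4267 CPM in ‘Uninjected’ libraries, so both ‘Mosaic’ libraries were lowest, as they were for *skilb*. The part of a different share of mesendoderm cells in the *skilb* result was not tested.

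**Figure D4:**
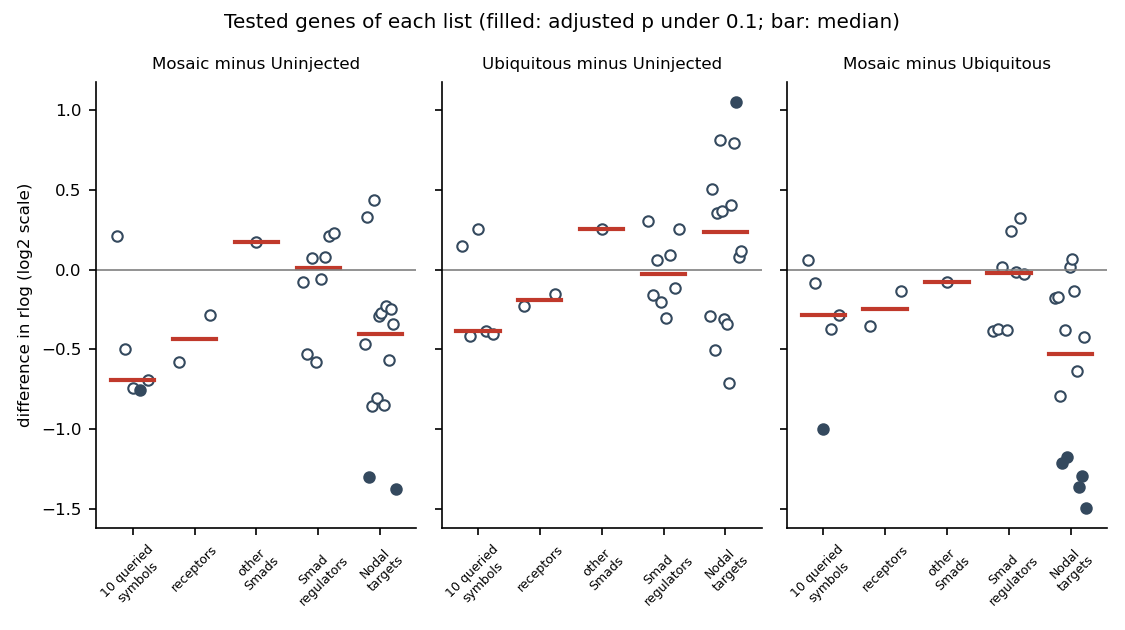
Differences in rlog (y axis, log2 scale) of the genes that passed the filter, for the 10 symbols queried and 4 further lists (x axis), in the 3 comparisons (panels). Circles are genes, filled circles have an adjusted p under 0.1 and bars are medians. Filled circles of the further lists are all mesendoderm genes that respond to Nodal, with a median of -0.53 in ‘Mosaic’ minus ‘Ubiquitous’.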

How the data were processed

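CEL-Seq2 libraries of 6 samples were analysed, 2 per group. The authors aligned reads to GRCz10 with Bowtie2 (2.3.1), counted them per gene with HTSeq (0.6.1) and discarded duplicate molecular identifiers (tools from the methods and the submitters' processing notes). The deposited values are rlog values on a log2 scale, as the table names them, and all 6 columns were used. Strand handling and the treatment of reads shared by paralogs are not given in the sources used here, so paralog pairs are uncertain.

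Symbols were matched to 26433 of the 32266 Ensembl identifiers. Positions were not used, since the gene table at hand is for another assembly. The genes and lists were chosen with earlier results of these data known. All 10 queried symbols are named, from further pathway lists the genes that passed the test and the 3 with the highest mean rlog, and from cell type and heat shock marker lists those that passed the test or were at 0. For *skilb*, the 5 genes with the highest correlation are named. INHBA, *ndr1*, *ndr2*, *spaw* and SKIL were named after their values were seen, except where the rule names them.

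Group means were compared with limma 3.58.1 (R 4.3.3; variance trend, all 6 libraries in 1 fit without a block) in the 3905 genes whose mean rlog reached 2. Each gene had 3 residual degrees of freedom against 14.97 of the variance prior, so its SE came mostly from the trend over those genes. Adjustment over those genes followed Benjamini and Hochberg, with the study's threshold of 0.1. Counts were inferred in Python 3.11.15 (numpy 2.4.6, scipy 1.17.1) from a model of size factors, dispersion trend and shrinkage. The inferred counts gave back the deposited values to within 0.001 for 99.908% of 14132 genes. Ratios of pooled CPM have exact conditional intervals that leave out the spread between lots. In ‘Ubiquitous’ and ‘Uninjected’ cells the pooled counts came mostly from the deeper lot. Scripts were tested on simulated data. Alternatives were other filters, scalings, variance priors, thresholds and sets of libraries, the lot number as a block, voom on inferred counts and, added after seeing the data, a negative binomial likelihood ratio test with the dispersion on the trend.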

Additional observations from a re-analysis of the deposited data

How the results depend on the processing

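The depth limits these results: the 9 genes with counts had at most 6 counts in each of the 2 shallowest libraries, and differences in SMAD3 and SMAD6 were not detectable. A fit without 1 library leaves 1 sample in its group, which is then assumed to vary like the others.

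Genes called over the whole table numbered 54 (‘Mosaic’ minus ‘Uninjected’), 19 (‘Ubiquitous’ minus ‘Uninjected’) and 52 (‘Mosaic’ minus ‘Ubiquitous’). They numbered 6, 7 and 0 with no filter (795, 468 and 950 at an unadjusted p under 0.05 in limma), 18, 5 and 24 with a mean rlog of at least 4, and 142, 54 and 159 in the 4 deepest libraries. That last fit holds 1 ‘Ubiquitous’ and 1 ‘Uninjected’ library and takes all of its spread from the ‘Mosaic’ lots, so its counts are not comparable with the others and say nothing about stability. The negative binomial test, added after seeing the data, called 32, 15 and 14. Of the 3905 genes, it had 162, 83 and 181 at an unadjusted p under 0.05, against 440, 264 and 506 in limma. It thus had fewer small p-values over the whole table, not only for the genes described. Which test is nearer to the truth was not tested. A threshold of 0.05 gave 33 for ‘Mosaic’ minus ‘Ubiquitous’. Without 1 library the counts were 25 to 64, 14 to 25 and 2 to 67. The cause of these shifts was not tested.

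Of the 5 genes described, 1 was called for ‘Mosaic’ minus ‘Uninjected’ (*gdf3*), and 0 with no filter, without a variance trend (adjusted p = 0.134), at a threshold of 0.05, with voom, in the 4 deepest libraries (0.114) and in the negative binomial test. Without 1 library the count was 0 to 1. For ‘Mosaic’ minus ‘Ubiquitous’ 1 was called (*skilb*), and 0 with no filter (0.428), 0 in the negative binomial test and 0 to 1 without 1 library. With a mean rlog of at least 4 none of the 5 was tested. Many of the 17 alternatives change only the test, its threshold or the filter and leave the differences as they are. Between groups whose libraries do not overlap, leaving out 1 library cannot reverse a direction either. Kept directions are therefore no sign of stability. The directions of the 5 genes were kept except for the SMAD7 and SMAD2 differences between ‘Mosaic’ and ‘Ubiquitous’. That of SMAD7 was -0.18 to 0.02 (0.0179 without ‘Ubiquitous’ lot 1) when 1 library was left out. That of SMAD2 was -0.0001 to 0.12, and -0.0001 in the 4 deepest libraries.

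Mesendoderm genes called numbered 0 to 4, 0 to 2 and 0 to 6 in the 3 comparisons over the alternatives, against 2, 1 and 5. With the lot number as a replicate block, the genes called were 57, 23 and 50, and *gdf3* (adjusted p = 0.0709) and *skilb* (0.0624) stayed called. The correlations of the lot deviations between groups were -0.12, -0.04 and -0.06, so the lots were not treated as pairs.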
